A study of Oryza sativa with 12 samples.

Results

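The genes described here had their highest signals in sterile florets of the thermosensitive genic male sterile (TGMS) rice line TGMS-Co27 grown at high temperature (Co27HT). Members are probe sets, the groups of short probes that measure a transcript on the rice array. A probe set was chosen when its mean log2 signal over the 3 Co27HT arrays was at least 7, lay at least 0.8 above the mean of each other group, and every Co27HT array was above all 9 other arrays. The rule found 78 probe sets. A nicotianamine synthase, a small heat shock protein and a DnaJ heat shock protein were left out, since genes of those families are not part of the set. This left 75 members of 57194 probe sets that are not controls. These differences chose the members, so every value of Co27HT against another group is given as a description, with no test. The number depended on scale: it was 43 after each array was centred on its median, and 42 of those were among the 75.

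Both TGMS-Co27 and its wild type H1493 (Hejiang 19, a japonica rice) were grown in the field, and inflorescences were sampled at the meiosis stage. TGMS-Co27 carries a Ugp1-derived construct, overexpressed in the H1493 background, by which the UDP-glucose pyrophosphorylase gene Ugp1 is cosuppressed, and it was the only transgenic line sampled. It is male sterile at high temperature (Co27HT) and fertile at low temperature (Co27LT), whereas H1493 is fertile in both conditions (H1493HT and H1493LT). The daily average was 28°C in the high-temperature groups and 20°C in the low-temperature groups, and temperature, day length, site and season changed together and cannot be told apart. Each of the 4 groups had 3 biological replicates on 12 Affymetrix arrays, and whether a replicate pooled several plants is not given in the sources used here.

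Plants answer wounding, microbes and abiotic stress with secreted proteins that attack cell walls and membranes, among them chitinases, thionins and glucan endo-1,3-beta-glucosidases, and with intracellular pathogenesis-related proteins of the Bet v I family. Enzymes that cut beta-1,3-glucan also serve in normal anthers, where callose, a beta-1,3-glucan, surrounds the meiotic cells and is removed when microspores are released. UDP-glucose, the product of Ugp1, is the substrate from which callose is made. In whole florets, fewer cells of a type and less RNA per cell cannot be told apart.

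Ugp1 read 11.36, 11.39 and 11.44 on the Co27HT arrays, between 12.86 and 12.91 in Co27LT, between 13.36 and 13.43 in H1493HT and between 13.57 and 13.64 in H1493LT, so the Co27HT arrays were below all others for the targeted gene. Whether its probe set also reads RNA of the construct is not given in the sources used here. By qRT-PCR the study found endogenous Ugp1 strongly reduced in TGMS-Co27 at either temperature. The median signal over all probe sets ranged from 5.23 to 5.74 among the arrays. Summed over 9 leaf photosynthesis genes, the log2 level was 12.43 to 12.52 in Co27HT, 13.14 to 13.27 in H1493HT, 14.35 to 14.37 in Co27LT and 14.84 to 14.92 in H1493LT. Of these genes CAB2R differed most between groups, with means of 9.57, 11.49, 13.72 and 14.27 in the same order of groups, whereas RBCS was higher at high temperature (10.14 and 10.27, against 8.60 in Co27LT and 9.14 in H1493LT) and CHLH lay between 9.94 and 10.13. The part of these genes in the members' differences was not tested. Summed levels of 12 tapetum and pollen wall genes lay between 13.58 and 13.77, carried by API5 and MSP1, and single genes differed more: CYP703A3 had means of 7.22 in Co27HT, 8.32 in H1493HT, 5.62 in Co27LT and 7.26 in H1493LT. Those of 16 floral organ identity genes lay between 16.16 and 16.35. Those of 11 meiosis genes lay between 13.64 and 13.80 at high and between 14.35 and 14.45 at low temperature. The brightest genes carried these sums, MEL1 most of all. HEI10 was higher at high temperature (8.37 in Co27HT and 8.54 in H1493HT, against 7.74 in Co27LT and 7.65 in H1493LT). The median log2 difference Co27HT minus H1493HT was -0.34 over the 11 genes but 0.22 for MEL1, so the sums do not show it. None of the 11 differences was called in the test given below. Among 64 reporter control probe sets, which match no rice gene and were outside the rule, 2 were called present on all 6 TGMS-Co27 arrays. RPTR-Os-A00196-1_s_at had means of 8.99 in Co27HT and 9.92 in Co27LT and was called present on no H1493 array. RPTR-Os-K01193-1_at had means of 14.13 and 14.35. It was called absent on the H1493HT arrays, but read 8.19, 8.48 and 8.15 and was called present on all 3 arrays labelled H1493LT, so those wild-type arrays stand apart for it.

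Most members were moderate in level and stood a little above the limit. Their mean log2 signal in Co27HT ranged from 7.0 to 14.72 with a median of 8.05, and the gap to the next highest group ranged from 0.81 to 4.17 with a median of 1.07. The next highest group was H1493HT for 51 members, Co27LT for 22 and H1493LT for 2. Across the 75 members, the median signal of an array was 7.99 to 8.20 in Co27HT, 6.78 to 6.88 in H1493HT, 6.15 to 6.57 in Co27LT and 5.65 to 5.84 in H1493LT. The array software called 61 members present on all 3 Co27HT arrays and 5 on none of them. On all 3 arrays of the other groups, 44 members were called present in H1493HT, 35 in Co27LT and 25 in H1493LT. Of all probe sets, 39.9% were called present on all 3 Co27HT arrays, 41.0% in H1493HT, 41.9% in Co27LT and 41.9% in H1493LT. Just inside the limit lay a probe set with no gene name from the transcript cluster of a thionin gene (gap 0.812). Probe sets of LOC4344489 (0.817) and LOC4348018 (0.822) came next. Just outside lay a probe set with no gene name (0.798) and those of LOC_Os07g06834 (0.785) and LOC4325570 (0.785).

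**Figure D1:**
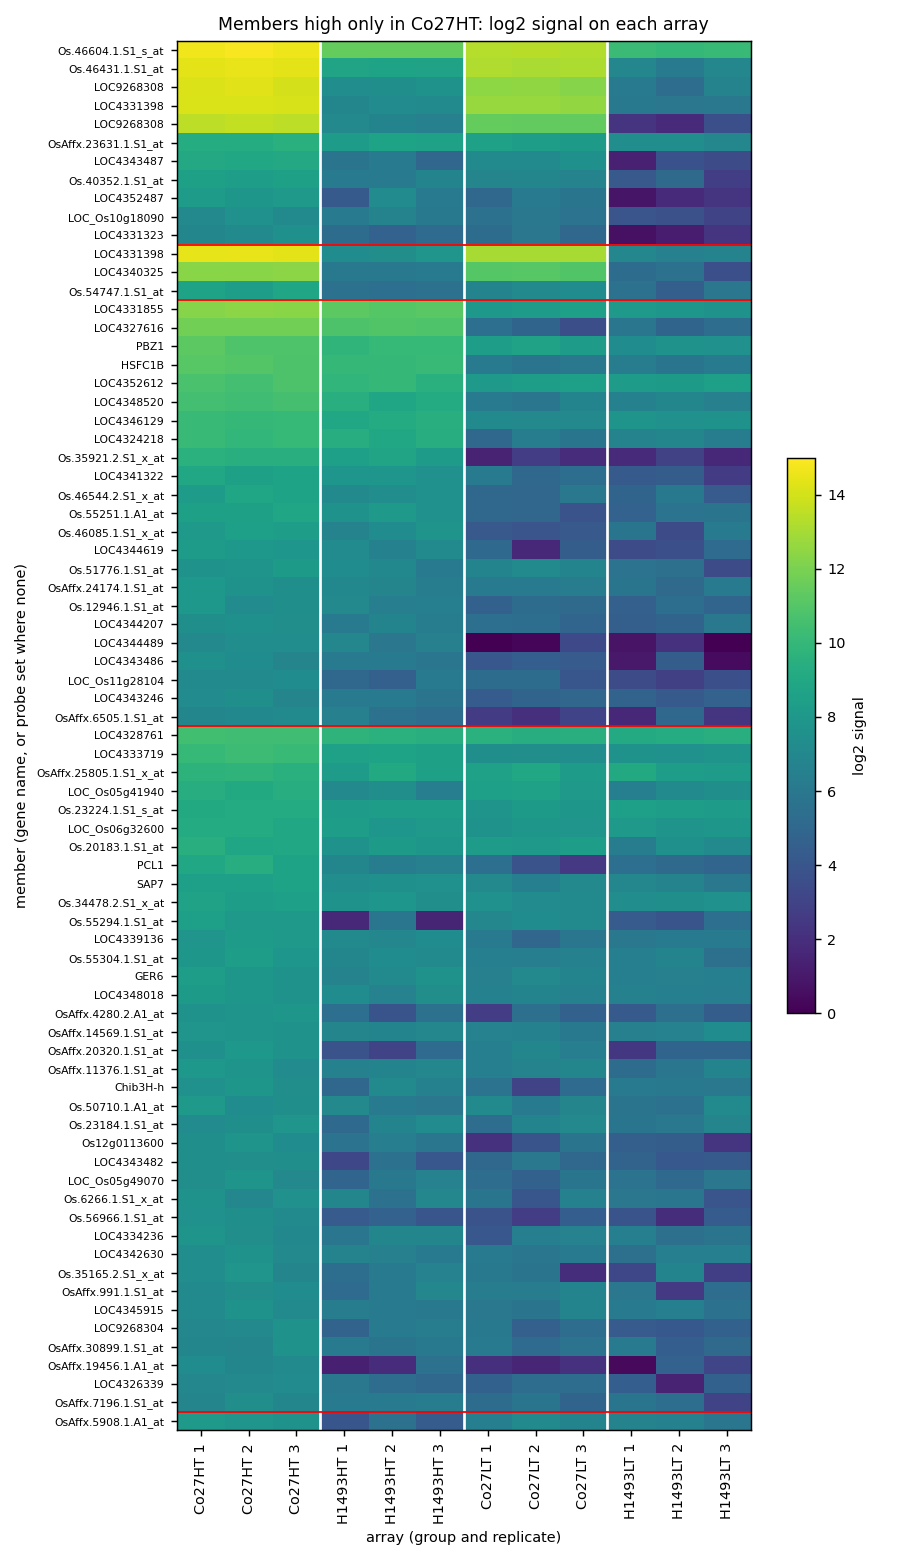
Log2 signal of the 75 members (rows) on the 12 arrays (columns, grouped by line and temperature), with red lines between members called in both, in either or in neither of the comparisons that hold no Co27HT array and share the H1493LT arrays. From top to bottom the blocks hold 11, 3, 23, 37 and 1 members. Of all probe sets, 64 had both calls of the top block. The top rows are brighter in Co27HT and Co27LT than in H1493, and the uppermost row is bright in H1493 too.

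The array's annotation names exactly 1 gene for 36 members, which are 34 genes, and with the loci in the study's additional files 42 members have a gene or locus and 33 have none. Other probe sets of the members' genes, or of the same transcript cluster on the array, number 29 that are no members. In 16 of them the Co27HT mean was under 6, near background. Of the other 13, Co27HT was the highest group in 10. Its lead over the next group was 1.34 and 3.49 for probe sets of LOC4344207, but only 0.04 to 0.72 for the rest of these. The share of all probe sets with Co27HT highest is not given, so the count has no background to compare with. Other probe sets of the stress-associated protein SAP7 were not among the 10. These 2 had Co27HT means of 7.60 and 8.26, below their H1493LT means of 7.87 and 8.62.

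Some member genes lie near each other on chromosomes 7 and 12. In the gene order of the rice assembly ASM3414082v1, 4 member genes lie within a stretch of 8 neighbouring genes on chromosome 7, of which 7 have a probe set. LOC4343482 (LOC_Os07g35350), LOC4343487 (LOC_Os07g35480) and LOC9268304 (LOC_Os07g35510) are annotated as glucan endo-1,3-beta-glucosidase precursors, and LOC4343486 has no description in the sources used here. Neighbouring copies of a family may share probes, so their signals are not certain to be separate.

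LOC4343487, the brightest of the 3 glucosidases, read 9.06, 8.92 and 9.07 in Co27HT, 7.14, 7.16 and 7.50 in Co27LT, 5.76, 6.13 and 4.97 in H1493HT and 1.35, 3.79 and 3.42 in H1493LT. Its TGMS-Co27 arrays were above its H1493 arrays at either temperature. LOC4343482 read 7.48, 7.42 and 7.49 in Co27HT, against 3.27, 5.63 and 4.06 in H1493HT, 5.08, 6.03 and 5.06 in Co27LT and 4.80, 4.15 and 4.24 in H1493LT. It was called present on all 3 Co27HT arrays and on only 1 of the 9 others. LOC9268304 read 6.92, 7.06 and 7.62 in Co27HT and at most 6.29 on any other array. LOC4343486 read 7.52, 7.31 and 6.80 in Co27HT, 6.10, 6.22 and 5.88 in H1493HT, 4.08, 4.49 and 4.33 in Co27LT and 1.05, 4.45 and 0.44 in H1493LT. Its other probe set stayed below 3 on all 12 arrays. Not every gene of the stretch met the rule. LOC4343483 read 7.63, 7.37 and 7.43 in Co27HT and at most 7.16 on any other array. Its means of 7.48 in Co27HT and 7.08 in H1493HT were too close for the limit. LOC9266571 did not exceed a group mean of 2.32.

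On chromosome 12, PBZ1 (LOC_Os12g36880), a pathogenesis-related protein of the Bet v I family induced by the resistance-priming chemical probenazole, and LOC4352487 (LOC_Os12g36830), of the same family, lie within a stretch of 6 genes, of which 4 have a probe set. PBZ1 was high in every group and read 11.23, 10.85 and 10.85 in Co27HT, 9.80, 10.02 and 10.07 in H1493HT, 8.42, 8.63 and 8.23 in Co27LT and 7.31, 7.64 and 7.59 in H1493LT. Its 4 groups did not overlap. LOC4352487 read 8.24, 7.94 and 8.09 in Co27HT and was called present only there; it read 4.26, 7.21 and 6.18 in H1493HT, 5.09, 6.21 and 5.85 in Co27LT and 0.85, 1.87 and 2.27 in H1493LT. The genes between them that have a probe set, LOC4352488 and LOC4352490, had Co27HT means of 7.78 and 7.92 against H1493HT means of 7.01 and 7.49, short of the limit.

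**Figure D2:**
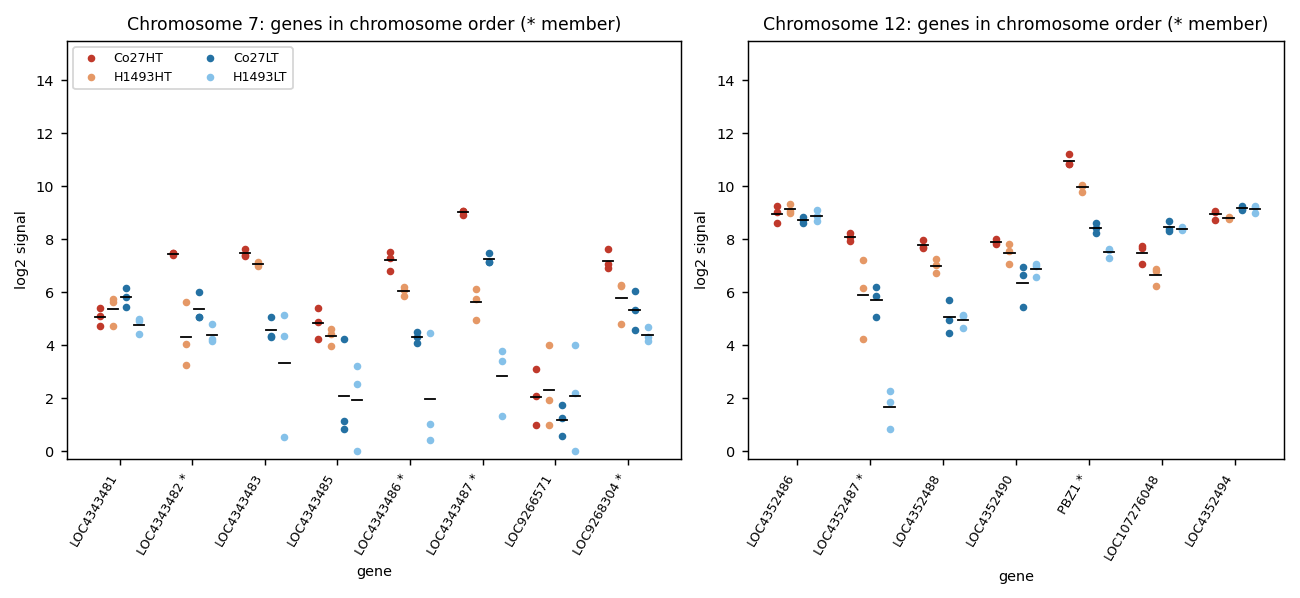
Log2 signal (vertical axis) of genes in chromosome order around the members on chromosomes 7 and 12, with a point for each array, a black bar for each group mean of 3 arrays, and an asterisk for members. For each gene the brightest probe set is drawn, and genes with none are left out. The red Co27HT points of the members lie above the points of all other groups. The first gene on chromosome 7 and the outermost genes on chromosome 12 show no such order. The last gene drawn on chromosome 7, LOC9268304, is itself a member.

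Further members bear names of defence or stress families, and a kinase with no such role in its annotation is given with them. Chib3H-h, a class III chitinase homologue, read 7.59, 7.92 and 7.44 in Co27HT, but 4.99, 7.11 and 6.58 in H1493HT, and was called present on a lone array, in Co27HT. The thionin gene THION15 (LOC_Os06g32600), of a family of small antimicrobial peptides, had a mean of 9.13 ± 0.15 (SD, n = 3) in Co27HT and means of 7.80 to 8.08 elsewhere. LOC_Os11g28104, annotated as a DUF26 receptor-like kinase, averaged 7.18 ± 0.10 in Co27HT, 5.26 ± 0.80 in H1493HT, 4.89 ± 0.73 in Co27LT and 3.30 ± 0.41 in H1493LT. SAP7, an A20 and AN1 zinc finger protein of the stress-associated family, averaged 8.57 ± 0.14 in Co27HT and 7.49 ± 0.12 in H1493HT. The heat stress transcription factor HSFC1B read 11.12, 10.98 and 10.83 in Co27HT, 9.99 to 10.14 in H1493HT, 6.15, 5.79 and 6.00 in Co27LT and 6.37, 5.82 and 6.22 in H1493LT. Its main split was by temperature, with the smaller line difference at high temperature only.

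PCL1, a MYB-family transcription factor of the circadian clock, had the largest gap of any member with a gene name, 2.43. It read 8.97, 9.35 and 8.70 in Co27HT and 6.88, 6.30 and 6.56 in H1493HT. In Co27LT (5.45, 3.83 and 2.48) and H1493LT (5.45, 5.20 and 4.87) it was called present on no array. The order of the group means was thus Co27HT, H1493HT, H1493LT and Co27LT, and the low-temperature groups overlapped. The member with the largest gap of all has no gene name and was called present on only 1 Co27HT array.

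Metabolic and wall genes were also found. LOC4333719 (LOC_Os03g47610), the thiamine biosynthesis protein thiC, which makes the pyrimidine part of vitamin B1, read 10.02, 10.30 and 10.19 in Co27HT, 8.59, 8.72 and 8.52 in H1493HT, 7.47, 7.39 and 7.34 in Co27LT and 7.71, 7.59 and 7.76 in H1493LT. Its high-temperature groups were each separate from all others. Another probe set of its gene was also highest in Co27HT, with a mean of 7.54 against 7.31 in H1493LT. LOC4343246 (LOC_Os07g30150), a phosphoribosyltransferase like those that salvage adenine, averaged 7.16 ± 0.32 in Co27HT and 6.03 ± 0.20 in H1493HT. LOC4331323 (LOC_Os03g01610), an expansin precursor of the family that loosens cell walls, averaged 7.19 ± 0.32 in Co27HT, 5.09 ± 0.31 in H1493HT, 5.45 ± 0.45 in Co27LT and 1.34 ± 0.80 in H1493LT. It was called present on the 3 Co27HT arrays and on 1 Co27LT array.

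By their annotation, 8 further members are a putative dehydrogenase (LOC_Os05g49070), a protein with an NAD(P)-binding fold (LOC4344207), a DUF567 protein (LOC4339136), a conserved hypothetical protein (LOC_Os10g18090), and the undescribed LOC4326339, Os12g0113600, LOC4344619 and LOC4345915, with Co27HT means between 7.08 and 8.07. The dehydrogenase was called present on none of the 12 arrays.

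Whether the members also differed in samples the rule does not place highest was tested in the comparisons without Co27HT arrays. A probe set was called when its adjusted p in limma (Benjamini-Hochberg over 57194 probe sets) was under 0.05 and its log2 difference was at least 1 in size. The rule favours genes that are lower at low temperature in both lines, or higher in TGMS-Co27 at both temperatures, because such genes clear some of the 3 limits without more. The shares called are therefore not independent of the choice of members. Where a group mean is under 6, the size of a log2 difference is not exact.

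In H1493, which stays fertile, 34 of 75 members were lower at low than at high temperature, or 45.3%, against 6.24% of all probe sets. Another was higher, against 5.34% of all probe sets, and 40 were not called. The median log2 difference of the members was -1.33 and that of all probe sets -0.07, and 69 of 75 members had a negative value. In 12 of the 34 both group means were at least 6, and in 5 both were under 6. The member that was higher (log2 difference 1.71) has no gene name, was called present on no array, and was not called in a fit to the 6 compared arrays (adjusted p = 0.079).

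The members that fell most in H1493LT were in part bright genes at high temperature. LOC4327616 read 11.82, 11.81 and 11.78 in Co27HT and 10.80, 10.93 and 10.88 in H1493HT, but 5.86, 4.83 and 5.37 in H1493LT and 5.48, 4.82 and 3.60 in Co27LT. It was lower in H1493LT than in H1493HT by a log2 value of -5.52 ± 0.42 (SE, limma adjusted p = 1.6e-05), and a second probe set of its cluster gave -6.36 ± 0.37 (limma adjusted p = 3.7e-06). With values under 5 set to 5, the first probe set gave -5.46 and the second -3.5. HSFC1B fell by 3.91 ± 0.16 (limma adjusted p = 6.2e-07). Both genes were bright at high temperature in both lines and near background or dim at low temperature.

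LOC4344489 read 6.92, 5.93 and 6.51 in H1493HT and 0.78, 2.13 and 0.00 in H1493LT, with a fall of 5.48 (limma adjusted p = 0.0011). Further large falls were those of the Bet v I gene LOC4352487 (4.22, limma adjusted p = 0.0014), LOC4343486 of the chromosome 7 stretch (4.08, limma adjusted p = 0.0059), LOC4341322 (4.02, limma adjusted p = 0.00012) and LOC9268308 (4.17, limma adjusted p = 5e-05). The probe sets of these 5 genes had means under 6 in H1493LT, but LOC9268308 has another member probe set with a mean of 6.09, which fell by 1.43 (limma adjusted p = 0.005). With values under 5 set to 5, the differences were -1.45 for LOC4344489, -1.06 for LOC4343486 and -2.79 for LOC4341322. That of the dimmer LOC9268308 probe set was -1.78. LOC4352487 then gave -1.13 and was no longer called (adjusted p = 0.15). In a fit to the 6 compared arrays LOC4343486 was not called (adjusted p = 0.063). PBZ1 (-2.45 ± 0.16), LOC4348520 (-2.51 ± 0.24) and LOC4331855 (-3.26 ± 0.15), an expressed protein that read 11.06 to 11.23 in H1493HT and 7.67 to 8.12 in H1493LT, fell with means of at least 6 in both groups. The glucosidase LOC4343482 (0.08), THION15 (-0.14) and Chib3H-h (-0.12) were not called, nor was PCL1 (-1.41, limma adjusted p = 0.14). The fall of thiC, 0.92, missed the limit of 1.

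At low temperature, where both lines are fertile, 14 of 75 members were higher in Co27LT than in H1493LT, or 18.7%, against 0.446% of all probe sets. None was lower, against 0.252% of all probe sets. At an unadjusted p under 0.05 with the same fold, 23 members were higher, against 2.08% of all probe sets, and none was lower, against 1.90%. With limma-trend none was lower either, although 1 was without H1493LT replicate 2. The median log2 difference was 0.28 for the members and -0.01 for all probe sets. Of the 14, 6 had both means at least 6, and 3 had both under 6. Also called lower in H1493LT than in H1493HT were 11 of the 14, or 78.6%. That share was 25.1% for the 255 probe sets called higher among all. Both comparisons use the H1493LT arrays, so a low value there favours both calls together. A fit to only the 6 arrays compared called 7 of the 14.

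**Figure D3:**
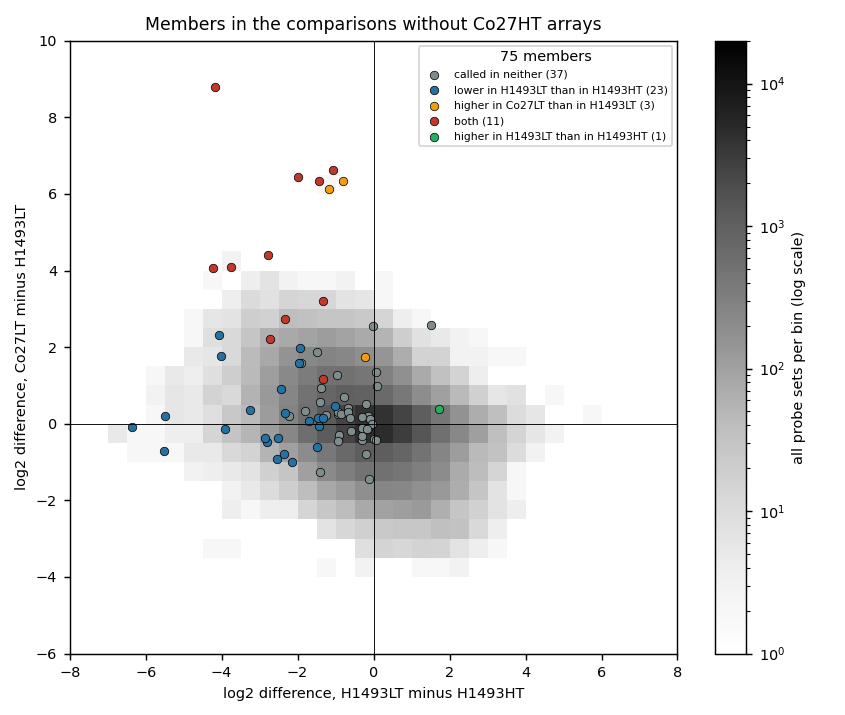
Log2 difference H1493LT minus H1493HT (horizontal) and Co27LT minus H1493LT (vertical) for the 75 members (coloured points by call) over the number of all probe sets in each bin (grey, log scale). Both axes use the H1493LT arrays, so a low value there moves a point left and up together. Most members lie left of 0, and 6 lie above 6 on the vertical axis.

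The brightest members belonged to these 14. Among them, 7 probe sets had means between 12.37 and 14.72 in Co27HT and between 11.04 and 13.34 in Co27LT. Their lead in Co27HT over Co27LT, 1.29 to 2.14, was smaller than their lead over H1493HT, 3.26 to 7.02. They were thus high in TGMS-Co27 at both temperatures. Their higher level in Co27HT than in Co27LT is required by the rule.

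LOC4331398 is measured by 2 of them. The slightly dimmer of them read 14.13, 14.13 and 14.09 in Co27HT and 12.66, 12.67 and 12.57 in Co27LT, against 6.88, 7.23 and 7.18 in H1493HT and 6.07, 5.96 and 6.01 in H1493LT. Its difference between Co27LT and H1493LT was 6.62 ± 0.10 (limma adjusted p = 1.8e-08), and that of the other probe set was 6.33 ± 0.15 (limma adjusted p = 2.4e-07). The gene has no description in the sources used here.

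A further pair of probe sets, of 1 transcript cluster, is assigned to LOC9268308 by the array's annotation and to LOC_Os04g02490 by the study's additional files, so the gene is not settled. The dimmer of them read 13.53, 13.60 and 13.51 in Co27HT, 11.47, 11.37 and 11.37 in Co27LT, 7.05, 6.75 and 6.55 in H1493HT and 2.33, 1.82 and 3.69 in H1493LT. Its difference between Co27LT and H1493LT was 8.79 ± 0.39 (limma adjusted p = 2e-05), read against a group called present on no array, and was 6.41 with values under 5 set to 5. The other gave 6.33 ± 0.29 (limma adjusted p = 2.2e-05). A probe set assigned to LOC4340325 or to LOC_Os03g43100 read 12.35, 12.34 and 12.42 in Co27HT and 11.04, 11.11 and 10.95 in Co27LT, and at most 6.13 on any H1493 array. The other probe set of LOC4340325 did not share this pattern, with group means of 7.42 to 7.85.

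Of the remaining 2 of these bright probe sets, which have no gene name, 1 gave 6.43 ± 0.18 (limma adjusted p = 6.6e-07), and the other gave 3.21 ± 0.09 and was bright in H1493 too, with 11.46 in H1493HT and 10.13 in H1493LT. LOC_Os07g06834, just outside the limit, had the same order of levels, with means of 13.61 in Co27HT, 12.82 in Co27LT, 7.47 in H1493HT and 6.97 in H1493LT. The reporter controls given above were high in both TGMS-Co27 groups too, with means higher in Co27LT than in Co27HT. The rule requires the opposite order of every member, so nothing is read from this difference in order. The part of the reporter controls in these values was not tested.

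The other 7 of the 14 were less bright, with Co27HT means of 7.19 to 9.36. They included the glucosidase LOC4343487 (log2 difference 4.41 ± 0.57, limma adjusted p = 0.0051), the expansin LOC4331323 (4.10 ± 0.40, limma adjusted p = 0.0011) and the Bet v I gene LOC4352487 (4.06 ± 0.68, limma adjusted p = 0.021), each with an H1493LT mean under 3. With values under 5 set to 5, the expansin (adjusted p = 0.63) and LOC4352487 (adjusted p = 0.84) were not called, and LOC4343487 gave 2.27. In the 6 compared arrays alone none of the 3 was called, with adjusted p = 0.10 for LOC4343487, 0.054 for the expansin and 0.056 for LOC4352487. PBZ1 was higher by 0.91, under the limit of 1.

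**Figure D4:**
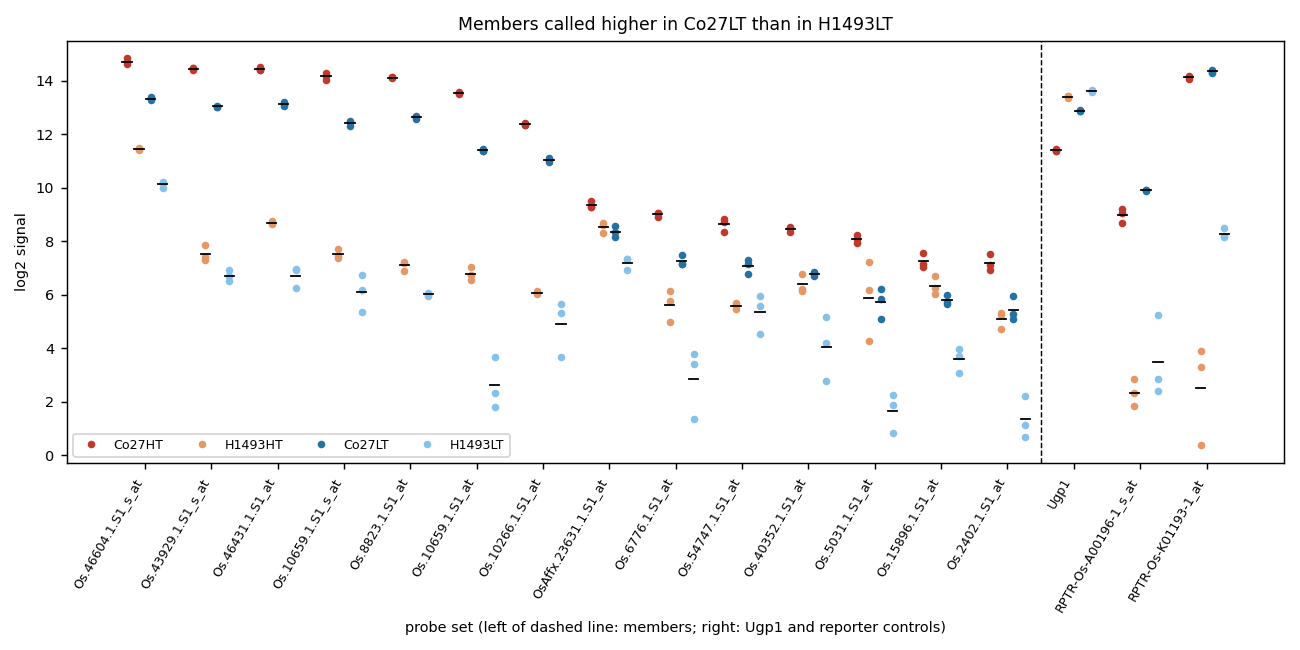
Log2 signal (vertical axis) on each array for the 14 members called higher in Co27LT than in H1493LT (left of the dashed line) and for Ugp1 and the reporter controls present on all TGMS-Co27 arrays (right), with a point for each array and a black bar for each mean of 3 arrays. The 7 leftmost members lie above 10 in both TGMS-Co27 groups, and Ugp1 alone has its lowest points in Co27HT.

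Genes of stress, nutrient, leaf and flower development lists that are no members were read between Co27HT and H1493HT. The lists number 13, and 2 of them hold a member. Of 182 listed genes, 4 were lower in Co27HT, or 2.20%, against 0.400% of all probe sets, and none was higher, against 0.254%. A listed gene is read by its brightest probe set, whereas many of all probe sets were not called present. The shares are therefore not alike, and no excess is read from them. Since members were left out, and those are the genes chosen for being higher in Co27HT, nothing is read from the count of higher genes. At an unadjusted p under 0.05 with the same fold, 2 were higher, against 2.62% of all probe sets, and 5 lower, against 1.89%, limma-trend called 1 higher and 5 lower, and without Co27HT replicate 3 the calls were 2 higher and 5 lower. A fit to the 6 arrays compared called none. The genes that fell were JAZ13, a repressor of jasmonate signalling (-1.74 ± 0.13, limma adjusted p = 0.00046), the heat stress factor HSFB2C (-1.14 ± 0.20, limma adjusted p = 0.026), CAB2R, a chlorophyll a/b-binding protein (-1.92 ± 0.12, limma adjusted p = 0.00021), and PORA, which reduces protochlorophyllide (-1.33 ± 0.09, limma adjusted p = 0.00023).

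By list, the calls were 1 of 15 jasmonate signalling genes, 1 of 19 heat stress factors beside the member HSFC1B, and 2 of 9 leaf photosynthesis genes. None was called of 10 pathogenesis-related and defence genes beside the member PBZ1, with a median log2 difference of -0.27, against 0.03 for all probe sets. Only 3 of these 10 were called present on all 12 arrays, so the median rests in part on dim genes. In that list the chitinases CHT2 and CHT9 differed by -0.29 and 0.07. WRKY71 differed by -0.80 (limma adjusted p = 0.0048), short of the limit of 1. None was called of 21 iron uptake and mugineic acid genes (median 0.05), 17 phosphate starvation genes (-0.16), 19 oxidative stress genes (-0.02), 9 endoplasmic reticulum stress genes (-0.07), 17 drought and abscisic acid genes (-0.27), 7 leaf senescence genes (-0.08), 12 tapetum and pollen wall genes (-0.01), 11 meiosis genes (-0.34) or 16 floral organ identity genes (0.09). The 21 iron uptake and mugineic acid genes include no nicotianamine synthase, although a gene of that family met the rule and was left out. The list therefore does not cover that step. A gene that was not called is not shown to be equal between the lines.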

How the data were processed

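Florets of 4 groups (H1493HT, Co27HT, Co27LT and H1493LT, 3 biological replicates each) had been hybridised to 12 arrays. Each array has log2 signals deposited by the authors, which were made with GeneChip Operating Software and MAS5 per the labels, and detection calls from the same software. The deposited values were used unchanged, and the number of arrays limits the precision. Of 57381 probe sets, 187 controls were left out (123 AFFX and 64 RPTR).

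All 12 arrays entered a linear model of 4 group means with empirical Bayes moderation (limma 3.58.1 under R 4.3.3, with 0.99 prior degrees of freedom and prior variance 0.0644). A run on simulated data used independent normal noise and changes in bright probe sets only. It therefore does not test calls in dim groups. Values are means of log2 signals, ± is the SD of 3 arrays for a mean and the SE of the fit for a difference. Tables were handled in Python 3.11.15. Gene names come from the array's platform annotation, the locus descriptions of the study's additional files and RefSeq names of ASM3414082v1.

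The members and the gene lists were chosen with earlier results of these data known. Named were up to 30 annotated members with the largest gap, up to 8 members in each direction with the largest difference among those called in each tested comparison, the 3 probe sets on either side of the limit, up to 4 called genes of each list, and Ugp1. The other probe sets of members, their neighbours and uncalled list genes were named after their values were seen. The 13 lists, of which a gene is represented by its brightest probe set and from which 4 symbols were dropped because the annotation gives them to other genes, are those whose counts the report gives. Alternatives were a floor at 5, centring on the median, quantile normalization, a fit restricted to the 6 arrays of a comparison, the study's threshold without adjustment, a replicate block, robust limma-trend, omission of single arrays, and limits on probe set type, level and gap. Comparison columns in the study's own tables (fold changes and p-values) were not used.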

Additional observations from a re-analysis of the deposited data

Results flagged for a closer look

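Outside the members, 2 reporter control probe sets carried signal. RPTR-Os-A00196-1_s_at had mean log2 signals of 8.99 in Co27HT and 9.92 in Co27LT, above 2.34 in H1493HT and 3.49 in H1493LT. RPTR-Os-K01193-1_at had means of 14.13 in Co27HT and 14.35 in Co27LT, above 2.53 in H1493HT and 8.27 in H1493LT. Both were called present on all 6 TGMS-Co27 arrays, whereas no group mean of the other reporter controls exceeded 5.77. The controls were not used in any comparison, and the source of the signal on the H1493LT arrays was not tested.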

How the results depend on the processing

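The rule gave 43 members after median centring (42 of them among the 75), 44 with a gap of at least 1, 40 with a level of at least 8 and 505 with no minimum level, and 74 to 105 when an array was left out, of which 65 to 75 were shared. Median centring moved the median difference of all probe sets between H1493LT and H1493HT from -0.07 to 0.11. The members called in H1493LT relative to H1493HT numbered 35, and 31 to 38 with an array left out. Those called in Co27LT relative to H1493LT numbered 14, and 11 to 15 with an array left out, 7 in only the 6 arrays compared and 23 at the study's threshold without adjustment. The listed genes called in Co27HT relative to H1493HT numbered 4, and 3 to 7 with an array left out, 0 in only the 6 arrays compared and 7 at the study's threshold. The other alternatives left these 4 counts within 1.5 times of their value. The cause of the larger moves was not tested, except that a fit to 6 arrays has fewer samples and the stricter or absent limits change the rule itself.

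Over all probe sets, same-numbered arrays did not deviate together (18 pairs, correlations from -0.011 to 0.025), so no pairing by number was seen. Many of these probe sets are near background, where noise could hide a pairing, so pairing is not excluded. With the replicate block, 35 members were called in H1493LT relative to H1493HT, 13 in Co27LT relative to H1493LT, and 3 listed genes in Co27HT relative to H1493HT.

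Of 17 named differences under 18 alternatives each, none turned direction and 6 calls were lost, and 12 differences kept their call throughout. Signal near background limits what can be read from dim groups: the mean of 42 members was under 6 in H1493LT, and that of 35 in Co27LT.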
